A study of Mus musculus with 8 samples.

Results

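The genes described here are the mitotic cyclins Ccnb1, Ccnb2, Ccnb3 and Ccna2, their kinase partner Cdk1, the Cks adaptor genes Cks1b and Cks2, and the phosphatase genes Cdc25a, Cdc25b and Cdc25c. They were taken by gene symbol from the table of RNA counts, and all 10 were found among its 55487 genes. RNA of mouse 2-cell embryos was sequenced in 8 libraries, each from a pool of 5 embryos. The 4 knockdown-labelled libraries came from embryos injected at the one-cell stage with CasRX, an RNA-guided nuclease that cuts RNA, together with a guide RNA against Polq, the gene of DNA polymerase theta. The 4 control libraries, labelled wild type, came from embryos that received CasRX with no guide named. Injection was 20 h after hCG, the hormone that triggers ovulation, and RNA was taken 10 h later. The labels name no strain or age, and all embryos of both groups had been injected with CasRX.

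Entry into mitosis is driven by Cdk1 bound to a B-type or A-type cyclin. The kinases Wee1 and Pkmyt1 hold the complex inactive by phosphorylating Cdk1, the Cdc25 phosphatases remove those phosphates, and the small Cks proteins bind Cdk1 and help it phosphorylate multisite substrates. The anaphase-promoting complex then marks the cyclins for destruction, which lets the cell leave mitosis. In the mouse, oocytes store many of these mRNAs, the first cell division runs largely on the stored supply, and transcription of the embryo's own genome begins in earnest in the 2-cell embryo. RNA abundance does not tell how much of a protein is made, because the translation of stored cyclin mRNA is itself regulated in oocytes and early embryos.

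Promoter sequence is shown for the 4 members with the highest RNA level among those with an entry in the RefSeq promoter table, and for Ccnb2, the member with the smallest p. The window searched was the 250 bases before the RefSeq start on the gene's own strand (GRCm38.p6), and each line gives the stretch of it that lies before the gene as GENCODE M21 annotates it. Capitals mark the CCAAT box (CCAAT on either strand), bound by the factor NF-Y, and the cell cycle genes homology region, CHR (TTTGAA on either strand), an element through which the MuvB complexes act on mitotic genes.
Ccnb1: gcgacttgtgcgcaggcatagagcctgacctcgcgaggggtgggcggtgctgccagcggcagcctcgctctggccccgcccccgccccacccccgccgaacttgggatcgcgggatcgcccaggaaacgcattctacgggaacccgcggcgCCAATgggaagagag
Ccnb2: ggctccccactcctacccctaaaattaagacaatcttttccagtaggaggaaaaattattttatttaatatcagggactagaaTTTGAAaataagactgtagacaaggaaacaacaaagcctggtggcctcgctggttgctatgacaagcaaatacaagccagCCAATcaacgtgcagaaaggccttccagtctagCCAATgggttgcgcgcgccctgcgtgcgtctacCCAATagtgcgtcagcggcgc
Cdk1: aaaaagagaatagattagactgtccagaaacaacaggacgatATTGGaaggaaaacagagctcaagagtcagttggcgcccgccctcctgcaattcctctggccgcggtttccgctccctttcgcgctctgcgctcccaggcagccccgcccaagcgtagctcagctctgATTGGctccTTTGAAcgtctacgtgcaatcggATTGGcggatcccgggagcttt
Cks1b: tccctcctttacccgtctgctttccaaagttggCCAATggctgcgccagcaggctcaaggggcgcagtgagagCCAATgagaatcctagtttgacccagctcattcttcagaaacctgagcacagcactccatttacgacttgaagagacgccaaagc
Cks2: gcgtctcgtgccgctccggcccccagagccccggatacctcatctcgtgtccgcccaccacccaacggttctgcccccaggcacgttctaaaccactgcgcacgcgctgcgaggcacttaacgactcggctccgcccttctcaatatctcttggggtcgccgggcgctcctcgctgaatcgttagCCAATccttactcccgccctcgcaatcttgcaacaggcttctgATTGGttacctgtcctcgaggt
The stretches shown are chr13:100786571-100786736 on the minus strand (Ccnb1), chr9:70421555-70421804 on the minus strand (Ccnb2), chr10:69352939-69353162 on the minus strand (Cdk1), chr3:89418384-89418541 on the minus strand (Cks1b) and chr13:51644982-51645231 on the plus strand (Cks2). Over the whole window of 250 bases, Ccnb1 held 2 CCAAT boxes, 63 and 95 bases before the start, and no TTTGAA. Cdk1 and Cks1b each held 2 matches to TTTGAA, the nearer ones 10 and 12 bases before the start, with 3 and 4 CCAAT boxes. The last 84, 26 and 92 bases of the Ccnb1, Cdk1 and Cks1b windows lie inside the annotated gene and are not printed. That part holds the nearer CCAAT box of Ccnb1, the nearer TTTGAA of Cdk1, and every TTTGAA and some CCAAT boxes of Cks1b. Ccnb2 held 3 CCAAT boxes, 17 to 83 bases before the start, and 1 TTTGAA farther out, 162 bases before the start. Cks2 held 2 CCAAT boxes. Of 32851 promoter windows of the same length, 33.8% held a CCAAT box, 16% held TTTGAA and 5.55% held both. No match overlapped another in these windows. Of the other members searched, Cdc25a held 2 CCAAT boxes, Cdc25b held 1 and Ccnb3 held neither motif. Ccna2 and Cdc25c were not searched. A match is only a run of letters, and binding was not measured.

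The libraries differed in depth with the group. The knockdown-labelled libraries held 4726159 to 33650050 counts, with replicates 1, 2 and 3 at 8627403 or fewer, and the controls held 33311665 to 43748621 counts. The share of counts in the 10 genes was 1.01% to 1.19% in the knockdown-labelled libraries and 0.857% to 1.22% in the controls. Markers of the 2-cell embryo (6 of 6 detected) summed to 729 to 1805 CPM (counts per 1000000, after scaling by the TMM method for library size) in the knockdown-labelled libraries and 586 to 1946 CPM in the controls. Of 9 markers of cumulus and granulosa cells, 3 had any count and 6 (Foxl2, Fshr, Inha, Inhba, Has2 and Ptx3) were at 0, with sums of 0.793 to 10.7 CPM in the knockdown-labelled libraries and 0 to 21.5 CPM in the controls. Markers of the maternal oocyte (6 of 6 detected) summed to 3686 to 5798 CPM in the knockdown-labelled libraries and 3331 to 5838 CPM in the controls. Of 6 markers of blastocyst lineages, 3 had a count and Cdx2, Krt8 and Sox17 were at 0, with sums of 22.8 to 31.8 CPM for the knockdown-labelled libraries and 13.3 to 26.4 CPM for the controls, and their part in the results was not tested. Of 3 sperm markers only Prm2 had a count, with a sum of at most 7.34 CPM in any library. The targeted gene did not separate the groups: Polq had 16.9, 38.9, 29.2 and 41.1 CPM in knockdown-labelled replicates 1 to 4, against 34.6, 49.7, 40.1 and 32.7 CPM in control replicates 1 to 4 (log2 fold change −0.32, SE 0.34, edgeR adjusted p = 1.0, and p = 0.343 in a 2-sided exact permutation test). Its log2 fold change was −0.11 without knockdown-labelled replicate 1, −0.18 when control replicate 2 was left out and −0.47 without knockdown-labelled replicate 4. The samples are therefore named by their label.

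None of the 10 genes passed the comparison of knockdown-labelled with control libraries. All 10 were abundant enough to be tested, and the edgeR quasi-likelihood test called 0 of them at an adjusted p under 0.05, as it did 0 of all 13146 genes tested (0% called). At an unadjusted p under 0.05 there were 2 of the 10, Ccnb2 and Cdc25c, against 2.81% of all genes (1.1% higher and 1.71% lower). DESeq2 and limma-voom, as other tests, called none of the 10 either (DESeq2 gave no p for Cdc25b), where DESeq2 called 0.154% of all genes. Log2 fold changes, knockdown-labelled minus control, were positive for 9 of the 10, with a median of 0.20, beside 46.6% positive and a median of −0.047 over all genes tested. The sign of Cks2, Cdc25a and Cdc25b, among the 9, and of Cks1b, the negative one, turned when certain single libraries were left out. The members that were positive numbered 6 without knockdown-labelled replicate 4, 10 without control replicate 2 and 10 when replicate 4 was the single knockdown-labelled library. In none of the 10 did the groups' levels separate without overlap, which happened in 2.98% of all genes. In bulk samples like these, fewer cells that hold a transcript and less of it per cell cannot be told apart.

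**Figure D1:**
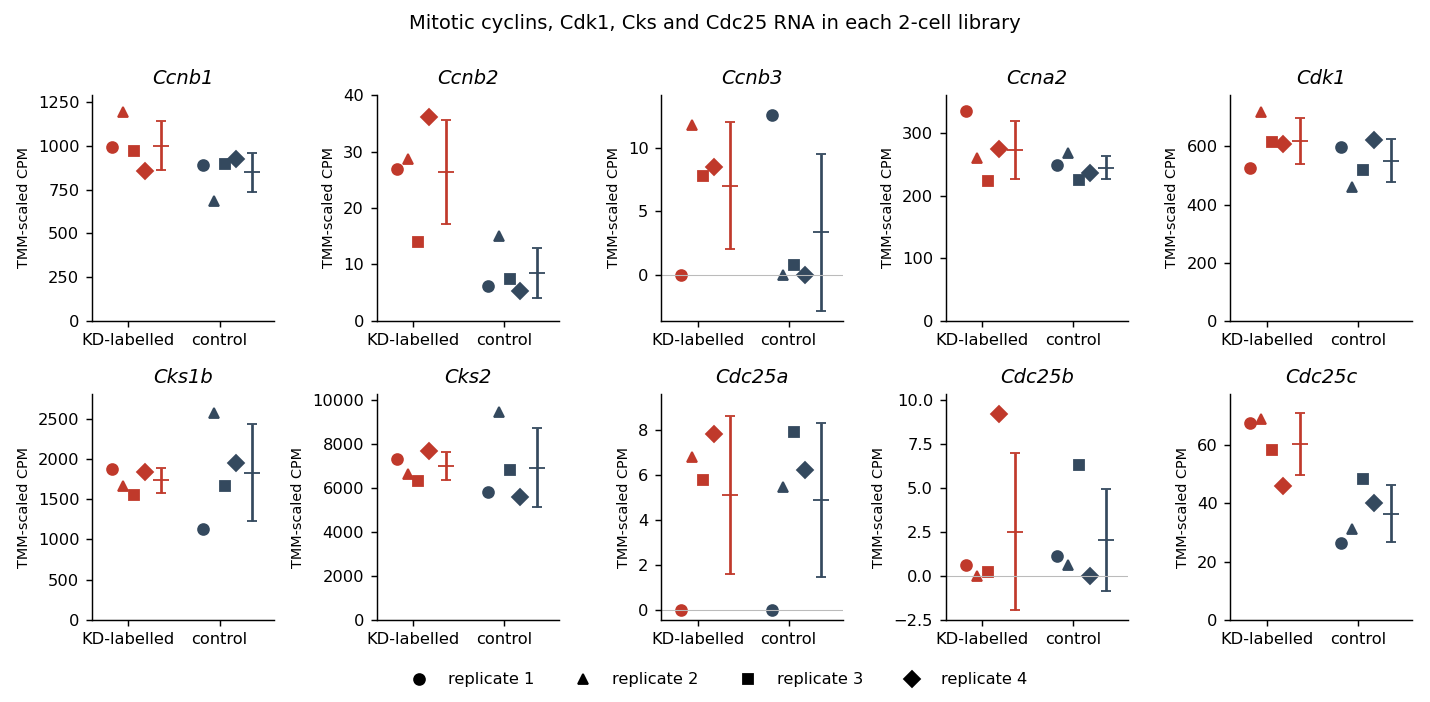
Level of each gene in each library, in CPM on a linear axis per panel, with knockdown-labelled (KD) libraries on the left and controls on the right; each symbol is a replicate, and the bar gives the mean ± SD of 4 libraries. Ccnb2 and Cdc25c sat higher in most knockdown-labelled libraries, with 1 library of each group crossing, while Ccnb3, Cdc25a and Cdc25b were at or near 0 in some libraries of both groups.

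Per kilobase of annotated exon, the 10 transcripts spanned from abundant to barely detected. Averaged over the 8 libraries, Cks2 stood at 10062 ± 1787 CPM per kb (SD) and ranked 9th among the 12801 tested genes with a length. Cks1b stood at 1582 ± 364, Ccnb1 at 219.6 ± 33.9, Cdk1 at 118 ± 16.1 and Ccna2 at 63.6 ± 8.87 CPM per kb. Each of these 5 exceeded the next in all 8 libraries, and their ranges did not overlap. Ccnb2 (11.4 ± 7.65 CPM per kb) and Cdc25c (9.83 ± 3.22) followed and did not differ beyond their spread, with Ccnb2 the higher in 3 of 4 knockdown-labelled and 1 of 4 control libraries. Ccnb3, Cdc25a and Cdc25b came last at 1.13 ± 1.21, 0.624 ± 0.3998 and 0.605 ± 0.937 CPM per kb, and their ranges overlapped. With the longest coding transcript as the length, Cdc25c came before Ccnb2 and Cdc25a before Ccnb3, and the other places were as above. On that length Cks2 was again at 10062 CPM per kb, with Cks1b at 2098, Ccnb1 at 372 and Cdk1 at 133. Ratios and shares per length given below use annotated exon, and their size depends on this choice.

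**Figure D2:**
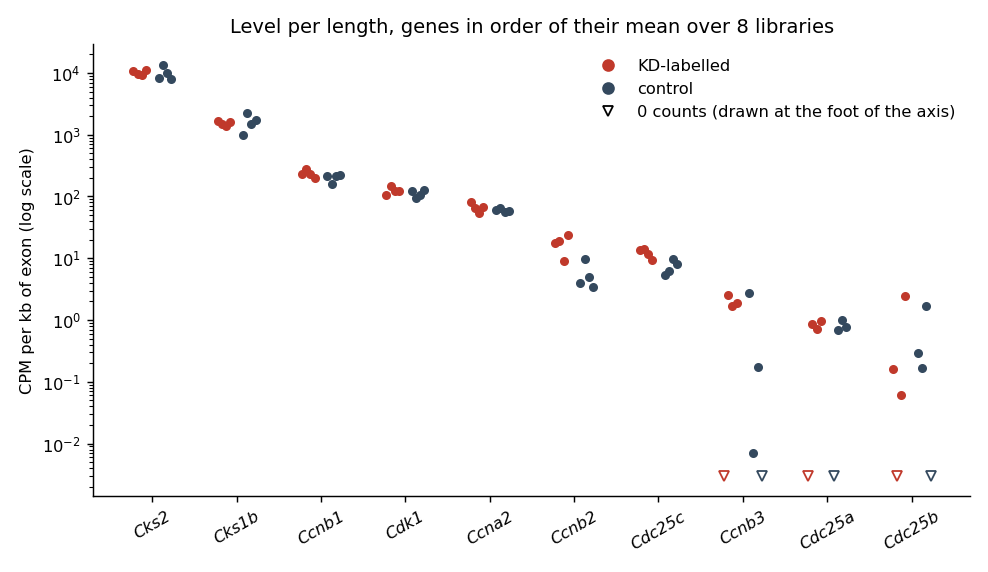
Level per kilobase of exon on a log axis, genes ordered by their mean over the 8 libraries, with 4 knockdown-labelled (KD) libraries on the left of each gene and 4 controls on the right; open triangles at the foot of the axis are libraries with 0 counts. Cks2, Cks1b, Ccnb1, Cdk1 and Ccna2 form separate steps, and Ccnb3, Cdc25a and Cdc25b each had 0 counts in 1 library of each group.

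Ccnb1 encodes cyclin B1, the B-type cyclin that mouse embryos cannot do without. Its level stood at 992, 1193, 969 and 855 CPM in knockdown-labelled replicates 1 to 4, against 890, 683, 898 and 927 CPM in control replicates 1 to 4. Knockdown-labelled replicate 4 lay below 3 of the controls, and the other 3 knockdown-labelled libraries lay above all of them. The means were 1002 ± 140.4 CPM over knockdown-labelled and 849.6 ± 111.8 CPM over control libraries (SD, n = 4 each), a log2 fold change of 0.24 (SE 0.16, edgeR adjusted p = 1.0) with a 95% interval of −0.11 to 0.58 on the log2 scale. It was 0.15 without replicate 2 of either group, and 0.017 with replicate 4 as the single knockdown-labelled library. Ccnb1 (ENSMUSG00000041431.16) lies on chromosome 13 from 100778650 to 100786570 (GRCm38) on the minus strand and has 6 separate exonic regions. It has 4 processed pseudogenes with at least 90% identity over 200 bases or more, whose counts summed to 1.33% of its own. RSEM shares out reads that match several genes by estimation, so the split between Ccnb1 and these copies is uncertain.

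Ccnb2 encodes cyclin B2, which mice can live without. It had the smallest p of the 10 genes and, per length, a far lower level than Ccnb1. Its level stood at 27.0, 28.7, 13.98 and 36.2 CPM in knockdown-labelled replicates 1 to 4, against 6.11, 15.03, 7.48 and 5.33 CPM in control replicates 1 to 4. The reads behind them numbered 136, 236, 121 and 1155 counts in knockdown-labelled replicates 1 to 4 and 200, 477, 327 and 229 counts in control replicates 1 to 4. Knockdown-labelled replicate 3 fell just under control replicate 2, and apart from that crossing the knockdown-labelled libraries were the higher ones. The means were 26.5 ± 9.23 CPM over knockdown-labelled and 8.49 ± 4.45 CPM over control libraries (SD, n = 4 each), a log2 fold change of 1.64 (SE 0.49, unadjusted p = 0.00719, adjusted p = 1.0 by edgeR) with an interval of 1.47-fold to 6.62-fold. A 2-sided exact permutation test gave p = 0.0571, where the smallest value that 4 against 4 libraries allow is 0.0286, and 24 genes were tested in this way. The estimate ran from 1.45 to 2.10 over the 16 alternative settings, and the adjusted p was 0.271 or more in each. Ccnb2 (ENSMUSG00000032218.7) lies on chromosome 9 from 70407692 to 70421547 on the minus strand, and no annotated gene overlaps it.

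Ccnb3 encodes cyclin B3, which mouse oocytes need to leave the first meiotic division. Its counts were 0, 97, 67 and 271 in knockdown-labelled replicates 1 to 4, against 411, 1, 34 and 0 in control replicates 1 to 4. In CPM these were 0, 11.8, 7.74 and 8.49 in the knockdown-labelled libraries and 12.6, 0.0315, 0.778 and 0 in the controls. Both groups thus held libraries with clear signal and libraries with none, and control replicate 1 was the highest of all. A count of 0 allows up to 3 counts, which is 0.595 CPM in knockdown-labelled replicate 1 and 0.0698 CPM in control replicate 4. Such limits cover counting error only. The log2 fold change was 1.07 (SE 1.93, edgeR adjusted p = 1.0), 4.67 without control replicate 1 and between 0.65 and 0.71 without knockdown-labelled replicate 2 or control replicate 2 or 4. Ccnb3 (ENSMUSG00000051592.14) lies on chromosome X from 6979652 to 7041619 on the minus strand.

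Ccna2 encodes cyclin A2, which acts in DNA replication and at entry into mitosis. Its level stood at 336, 261, 224 and 275 CPM in knockdown-labelled replicates 1 to 4, against 250, 269, 226 and 236 CPM in control replicates 1 to 4. The groups overlapped, and knockdown-labelled replicate 1 was the highest library. The log2 fold change was 0.16 (SE 0.17, edgeR adjusted p = 1.0), with an interval of 0.862-fold to 1.45-fold, and it was 0.049 without knockdown-labelled replicate 1 and 0.24 without knockdown-labelled replicate 3. Exons of Ccna2 (ENSMUSG00000027715.9) on the minus strand of chromosome 3 (36564865 to 36572150) overlap those of Exosc9 on the other strand, whose counts came to 10.7% of those of Ccna2, and with the strand setting unknown reads of the shared stretch cannot be told apart.

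Cdk1, the catalytic partner of these cyclins, was among the steadier members. Its level stood at 527, 720, 614 and 608 CPM in knockdown-labelled replicates 1 to 4, against 599.7, 460.0, 520.2 and 622 CPM in control replicates 1 to 4. The groups overlapped between 527 and 622 CPM. The log2 fold change was 0.17 (SE 0.16, edgeR adjusted p = 1.0), with an interval of 0.880-fold to 1.43-fold, and it was 0.091 without replicate 2 of either group. Over all 8 libraries the coefficient of variation was 13.6% for Cdk1, 13.95% for Ccna2 and 15.5% for Ccnb1. Cdk1 (ENSMUSG00000019942.13) lies on chromosome 10 from 69335146 to 69352938 on the minus strand, with no overlapping gene.

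Per length, the Cks genes were the most abundant of the 10 in every library. Cks2, which mouse germ cells need to pass the first meiotic division, had 7339, 6644, 6299 and 7699.8 CPM in knockdown-labelled replicates 1 to 4, against 5817, 9471, 6838 and 5598 CPM in control replicates 1 to 4. All 4 knockdown-labelled libraries lay inside the range of the controls. Cks1b, which also serves the ubiquitin ligase that removes the Cdk inhibitor p27, had 1879, 1660.5, 1545 and 1842 CPM in knockdown-labelled replicates 1 to 4, against 1130.0, 2573, 1664 and 1954 CPM in control replicates 1 to 4. Here too the knockdown-labelled libraries lay inside the control range. The log2 fold changes were 0.013 for Cks2 (SE 0.17) and −0.080 for Cks1b (SE 0.22), with edgeR adjusted p = 1.0 for each. Their intervals were 0.772-fold to 1.32-fold for Cks2 and 0.671-fold to 1.33-fold for Cks1b.

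Cks2 (ENSMUSG00000062248.5) lies on chromosome 13 from 51645232 to 51650660 on the plus strand and Cks1b (ENSMUSG00000028044.6) on chromosome 3 from 89415472 to 89418383 on the minus strand. Near-identical genes, 5 processed pseudogenes for Cks2 and Cks1brt with 2 processed pseudogenes for Cks1b, held counts equal to 0.0385% and 0.149% of the gene itself. Per length, Cks2 exceeded Cks1b 6.36-fold to 6.80-fold in the knockdown-labelled libraries and 4.66-fold to 8.38-fold in the controls. Control replicate 2 had the highest level of each, while control replicate 1 had the lowest Cks1b and control replicate 4 the lowest Cks2.

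Cdc25c was the phosphatase gene with the most RNA per length, and it encodes an activator of Cdk1 that mice can live without. Its level stood at 67.6, 69.0, 58.5 and 46.1 CPM in knockdown-labelled replicates 1 to 4, against 26.2, 31.1, 48.2 and 40.3 CPM in control replicates 1 to 4. Knockdown-labelled replicate 4, the deepest library of its group, lay under control replicate 3, and the 3 shallow knockdown-labelled libraries lay above all controls. The means were 60.3 ± 10.6 CPM over knockdown-labelled and 36.5 ± 9.75 CPM over control libraries (SD, n = 4 each), a log2 fold change of 0.72 (SE 0.28, unadjusted p = 0.0257, adjusted p = 1.0 by edgeR) with an interval of 1.08-fold to 2.53-fold. The 2-sided exact permutation test gave p = 0.0571. With replicate 4 as the single knockdown-labelled library the estimate was 0.35 (edgeR adjusted p = 0.926), and with all libraries thinned to the smallest total it was 0.74. Cdc25c (ENSMUSG00000044201.10) lies on chromosome 18 from 34732993 to 34751533 on the minus strand, and its exons overlap the predicted gene Gm3550 on the other strand. With the strand setting unknown, reads of the shared stretch cannot be told apart.

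Cdc25a, without which mouse embryos die early, had 0, 56, 50 and 250 counts in knockdown-labelled replicates 1 to 4, against 0, 174, 345 and 268 counts in control replicates 1 to 4. In CPM these were 0, 6.80, 5.78 and 7.83 in the knockdown-labelled libraries and 0, 5.48, 7.89 and 6.24 in the controls. Replicate 1 of each group stood at 0, and the other 6 libraries lay close together. In control replicate 1, with 33311665 counts in all, a count of 0 allows at most 0.0917 CPM, far under the 5.48 CPM of the next control. The log2 fold change was 0.064 (SE 1.58, edgeR adjusted p = 1.0). Cdc25a (ENSMUSG00000032477.14) lies on chromosome 9 from 109875579 to 109893895 on the plus strand.

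Cdc25b, which mouse oocytes need to resume meiosis, had 3, 0, 2 and 293 counts in knockdown-labelled replicates 1 to 4, against 36, 20, 276 and 0 counts in control replicates 1 to 4. In CPM these were 0.595, 0, 0.231 and 9.18 in the knockdown-labelled libraries and 1.10, 0.630, 6.31 and 0 in the controls. Only knockdown-labelled replicate 4 and control replicate 3 held more than 2 CPM, and the gene passed the filter on low counts through a few libraries. The log2 fold change was 0.33 (SE 1.98, edgeR adjusted p = 1.0), and −2.90 without knockdown-labelled replicate 4. Cdc25b (ENSMUSG00000027330.16) lies on chromosome 2 from 131186949 to 131198497 on the plus strand and shares exonic stretches with Spef1 on the other strand. Per length, Cdc25c made up 73.1% to 98.9% of the summed Cdc25 RNA in the knockdown-labelled libraries and 78.5% to 94.8% in the controls.

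**Figure D3:**
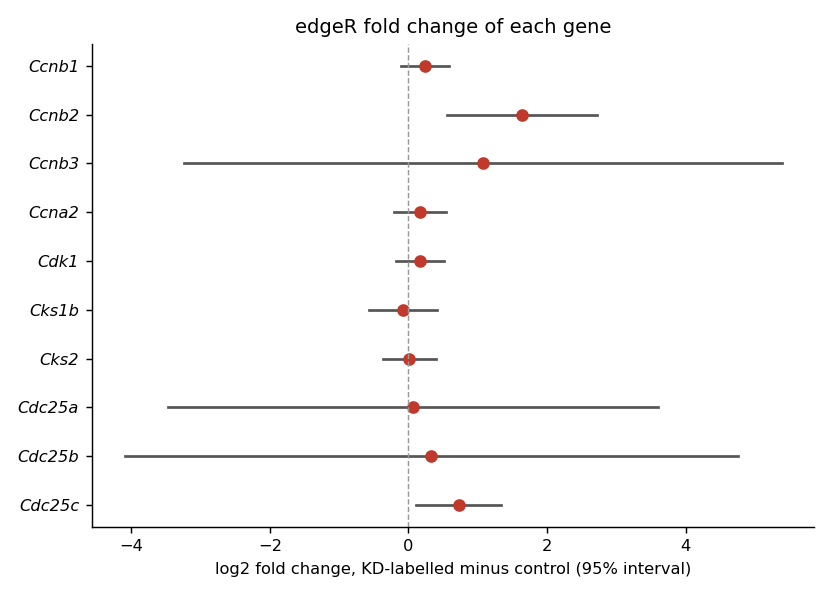
Log2 fold change of each gene, knockdown-labelled minus control, from edgeR, with its 95% interval as a line. The intervals of Ccnb1, Ccna2, Cdk1, Cks1b and Cks2 are narrow and include 0, those of Ccnb3, Cdc25a and Cdc25b span several log2 units, and those of Ccnb2 and Cdc25c lie above 0 before adjustment over all genes.

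The balance between the B-type cyclins leaned to Ccnb1 in every library. Per length, Ccnb1 exceeded Ccnb2 13.4-fold, 15.1-fold, 25.2-fold and 8.58-fold in knockdown-labelled replicates 1 to 4, against 52.8-fold, 16.5-fold, 43.6-fold and 63.1-fold in control replicates 1 to 4. Control replicate 2 fell within the knockdown-labelled range. Ccnb2 made up 3.79% to 10.4% of the summed B-type cyclin RNA in the knockdown-labelled libraries and 1.56% to 5.71% in the controls. The ratio of Ccnb1 to Cdk1 was narrower, at 1.65 to 2.20 in the knockdown-labelled libraries and 1.74 to 2.02 in the controls. These ratios were chosen after the levels had been seen and were not tested.

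**Figure D4:**
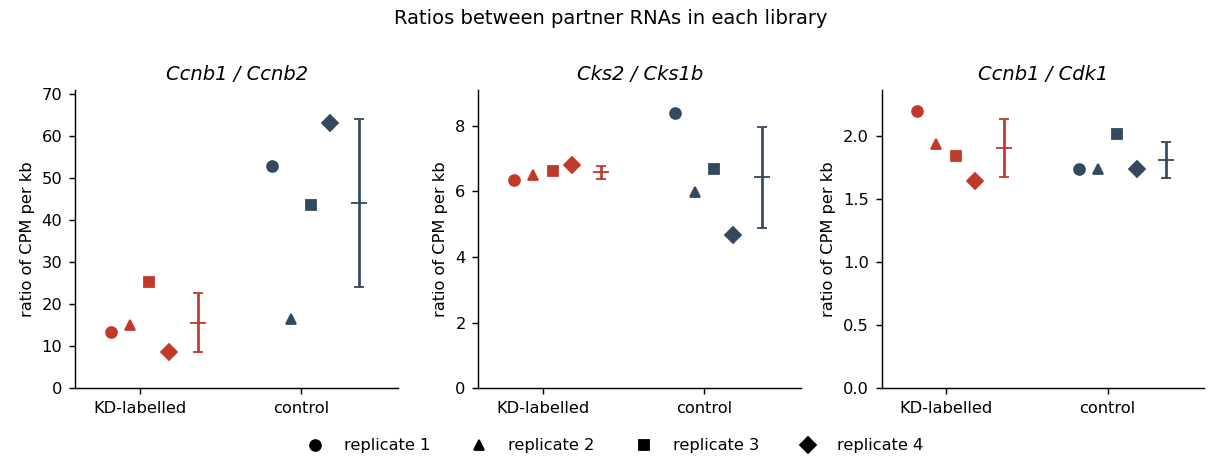
Ratio of levels per kilobase between partner genes in each library, knockdown-labelled (KD) on the left and control on the right, with the mean ± SD of 4 libraries as a bar; each symbol is a replicate. The ratio of Ccnb1 to Ccnb2 was 8.58 to 25.2 in the knockdown-labelled libraries and 16.5 to 63.1 in the controls, while the groups also overlapped in Cks2 to Cks1b and in Ccnb1 to Cdk1.

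Across the 8 libraries the 10 genes did not follow a single course. Of the 45 pairs, 29 had a positive Pearson correlation of log2 CPM, with a median r of 0.13 and a range of −0.70 to 0.79. The highest was that of Ccnb1 with Cdk1 (r = 0.79, Spearman rho = 0.60), followed by Ccnb1 with Cdc25c (r = 0.73, rho = 0.83) and Cks1b with Cks2 (r = 0.72, rho = 0.48). The libraries share depth differences and groups, so these values describe the 8 libraries and carry no test. Other genes with a mean of 10 CPM or more were compared with Ccnb1, leaving out symbols of predicted genes (Gm with digits, or ending in Rik). Of these 5438, those most like Ccnb1 were Spty2d1, a histone chaperone, Hint1, a nucleotide-binding protein, and Folr1, a folate receptor. Each had r = 0.95, picked as the highest of many candidates and not tested.

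The other genes of the pathway were described by 5 lists of 55 genes, of which 52 were abundant enough to test. None of edgeR, limma-voom and DESeq2 called any of the 52 at an adjusted p under 0.05, and 4 had an unadjusted edgeR p under 0.05, where 2.81% of all genes did. Positive and negative log2 fold changes numbered 26 each, with a median of −0.013. The groups' levels did not overlap in 1 of the 52 with the knockdown-labelled libraries higher and in 2 with them lower. Over all genes tested these shares were 1.44% and 1.54%. The genes named are the 2 with the smallest p of each list, a choice that itself favours genes whose groups separate.

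Among 10 regulators of Cdk1 activity (6 positive, 4 negative, median 0.17), Bora and Plk1 had the smallest p. Bora, the cofactor with which Aurora A activates Plk1, had 69.8, 84.9, 57.0 and 80.8 CPM in knockdown-labelled replicates 1 to 4, against 94.3, 154, 125 and 153 CPM in control replicates 1 to 4. The knockdown-labelled libraries all lay below the controls, as in 1.54% of all genes. Its log2 fold change was −0.85 (SE 0.23, unadjusted p = 0.00445, adjusted p = 1.0 by edgeR). Plk1, the mitotic kinase that Bora helps to activate, had 22.6, 8.26, 14.6 and 9.34 CPM in knockdown-labelled replicates 1 to 4, against 2.75, 4.66, 6.38 and 4.47 CPM in control replicates 1 to 4. The knockdown-labelled libraries all lay above the controls, as in 1.44% of all genes. Its log2 fold change was 1.58 (SE 0.60, unadjusted p = 0.0240, adjusted p = 1.0 by edgeR), and its exons overlap the predicted gene Gm44985 on the other strand.

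The Greatwall list (2 positive, 5 negative, median −0.12) holds the kinase Mastl and the phosphatase PP2A-B55 that it restrains during mitosis. Mastl had 39.5, 41.4, 80.5 and 59.9 CPM in knockdown-labelled replicates 1 to 4, against 86.2, 105, 138 and 89.6 CPM in control replicates 1 to 4. The knockdown-labelled libraries all lay below the controls. Its log2 fold change was −0.92 (SE 0.29, unadjusted p = 0.00979, adjusted p = 1.0 by edgeR). Ppp2r2d, a B55 subunit, was at 20.8 ± 8.14 CPM in the knockdown-labelled libraries and 30.3 ± 12.4 CPM in the controls (SD, n = 4 each).

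For cyclin destruction, 10 of 15 genes had a log2 fold change above 0 and 5 below (median 0.17). Anapc11 and Cdc27, subunits of the anaphase-promoting complex, averaged 195 ± 49.7 and 119 ± 17.8 CPM over the knockdown-labelled libraries, against 136 ± 20.9 and 93.8 ± 13.5 CPM over the controls (SD, n = 4 each). Of 13 interphase cyclins, Cdks and Cdk inhibitors, Ccna1, Ccnd2 and Cdkn1b were too low to test, and of the other 10, 3 lay above 0 and 7 below (median log2 fold change −0.38). Ccne2, an E-type cyclin, averaged 63.6 ± 6.32 CPM over the knockdown-labelled libraries and 94.7 ± 28.7 CPM over the controls. Ccnd3, a D-type cyclin, averaged 4.79 ± 3.75 CPM over the knockdown-labelled libraries and 1.33 ± 2.37 CPM over the controls. Of the 10 genes on the list for transcription of mitotic genes, 5 lay above 0 and 5 below (median log2 fold change −0.057). Lin54 and Lin9 are MuvB subunits, of which Lin54 binds CHR elements. Whether it binds the letters marked in the sequences above was not measured. Lin54 and Lin9 averaged 40.5 ± 18.4 and 68.2 ± 17.5 CPM over the knockdown-labelled libraries. Over the controls they averaged 58.1 ± 5.19 and 52.4 ± 8.13 CPM. Ppp2r2d, Ccne2 and Ccnd3 share exonic stretches with Mapk1ip1, Ints8 and Bysl on the other strand. None of the genes of these 3 lists had groups that did not overlap, and each named here had an edgeR adjusted p of 1.0.

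**Figure D5:**
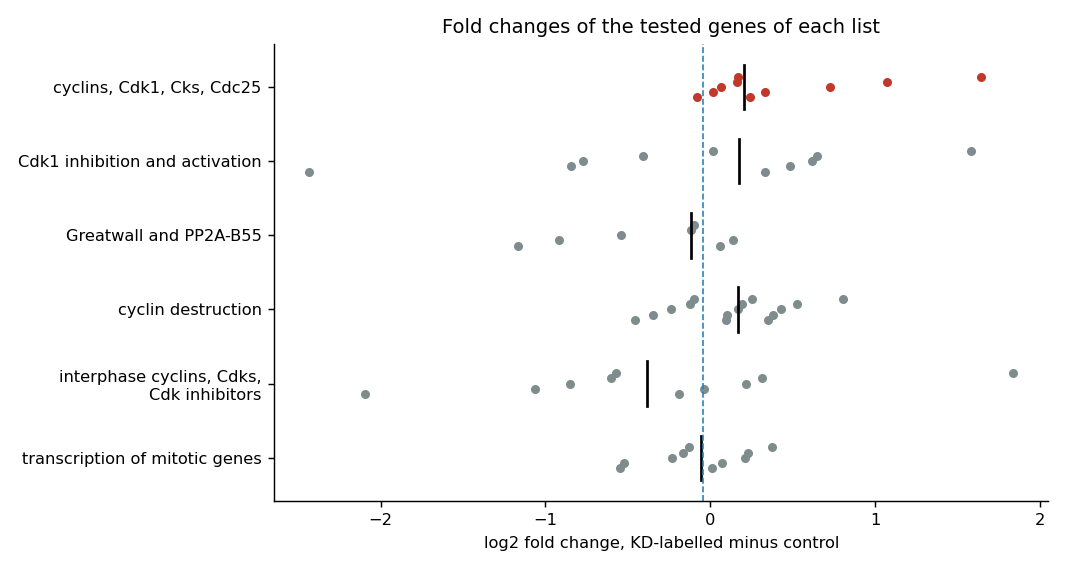
Log2 fold change, knockdown-labelled minus control, of each tested gene of the cyclin, Cdk1, Cks and Cdc25 genes (top) and of the 5 pathway lists; each point is a gene, black bars are list medians and the dashed line is the median of all 13146 genes tested (−0.047). The medians lie between −0.38 and 0.20, and no gene shown passed the adjusted threshold.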

How the data were processed

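RNA-seq of 8 mouse 2-cell libraries, 4 knockdown-labelled and 4 control, was analysed from the authors' deposited table of expected counts per gene. Per the labels' protocols, TRIzol RNA went into libraries of the NEBNext Ultra RNA type. Per the submitters' processing notes, the tools named are RSEM 1.2.28, STAR 2.7.3a and Trim Galore 0.6.10, and the genome is GRCm38 (mm10). The annotation release and strand setting were not given in the sources used here.

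Expected counts were rounded (4.22% of values changed). The labels mention no molecular identifiers, so a count is not a molecule. Of 55487 genes, 13146 passed edgeR's filterByExpr (minimum count 10, minimum total 15). The main test was the robust quasi-likelihood test of edgeR 4.0.16 (R 4.3.3) with TMM scaling (trimmed mean of M values) and no covariate besides group, with Benjamini-Hochberg adjustment over all genes tested. CPM are TMM-scaled, and permutation tests used log2 CPM (prior count 2) over all 70 assignments. The procedure was run on simulated data whose replicates varied less than the common value of these data (biological coefficient of variation 0.987). That run therefore does not show how readily the test calls changes at the spread found here. Positions, exon lengths and near-identical transcripts (blastn 2.17.0) come from GENCODE M21.

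Group sizes rest on labels that call the samples biological replicates. Replicates of a group differed far beyond sampling noise. The members and lists were chosen with earlier results of these data known. Named genes are Polq, the 10 members, the 2 genes of smallest p in each pathway list and the 3 most like Ccnb1. Alternatives were DESeq2 1.42.0 as the test, DESeq2 size factors, library totals, limma-voom 3.58.1, no filter on low counts, a replicate block, leaving out each library, and, chosen after seeing the data, thinning to 4726160 counts and keeping only knockdown-labelled replicate 4.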

Additional observations from a re-analysis of the deposited data

Results flagged for a closer look

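Over 24 genes, 48 groups of 4 libraries were checked. Of these, 5 held a library whose gap to its neighbours exceeded Dixon's 95% critical share of the group's range. For normally distributed values, chance alone gives such a gap in about 1 group in 20. The check used CPM on a linear scale, and that rate need not hold for low, skewed levels such as those of Ccnb3, Cdc25b and Ccnd3. Control replicate 2 had 683 CPM of Ccnb1, against 890 to 927 CPM in the other controls. Control replicate 1 had 12.6 CPM of Ccnb3, against 0 to 0.778 CPM in the other controls. Knockdown-labelled replicate 4 had 9.18 CPM of Cdc25b, against 0 to 0.595 CPM in the other knockdown-labelled libraries. Control replicate 3 had 49.0 CPM of Ppp2r2d, against 23.4 to 25.1 CPM in the other controls. Control replicate 2 had 4.88 CPM of Ccnd3, against 0.0611 to 0.303 CPM in the other controls.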

How the results depend on the processing

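Under all 16 alternatives, 0 of the 10 genes and 0 of the pathway genes passed the adjusted threshold. Over all genes the count was 0 in edgeR and limma-voom settings and 20 with DESeq2; unadjusted p under 0.05 gave 369 genes in edgeR, 558 in DESeq2 and 2614 with no filter on low counts. Of 382 alternative log2 fold changes of 24 genes, 365 kept their sign and 17 did not. Ccnb2 was positive, with an unadjusted p of 0.0262 or less, in every setting, and Cdc25c was positive in every setting with an unadjusted p under 0.05 in 10 of 17. With 1 library left out, the estimate ran from −0.25 to 0.13 for Cks1b, −0.077 to 0.21 for Cks2, −0.34 to 0.47 for Cdc25a and −2.90 to 2.12 for Cdc25b. The sign turned without control replicate 2 for Cks1b, without replicate 1 or 4 of either group for Cks2, without knockdown-labelled replicate 2 or 4 or control replicate 1 for Cdc25a, and without replicate 4 of either group for Cdc25b. Without control replicate 3 Ppp2r2d was at −0.22, and without control replicate 2 Ccnd3 was at 4.93. Cks2 was at −0.023 with no filter on low counts. With replicate 4 as the single knockdown-labelled library, where that library is assumed to vary like the controls, the estimate was 0.073 for Polq, 0.019 for Cks1b, −0.20 for Lin9, −0.34 for Spty2d1 and −0.028 for Hint1; the cause was not tested. Replicate numbers did not pair the libraries: the correlation of same-numbered libraries was −0.19 to 0.025, and no library was most like its own number, and with the replicate block 0 genes were called and 293 had an unadjusted p under 0.05, with Cdc25b at −1.94. Depth limits the low members most, since a count is worth 0.198 CPM in knockdown-labelled replicate 1 and 0.0229 CPM in control replicate 3.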
